A study of Mus musculus with 10 samples.

Results

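Gene expression was compared between primary mouse hepatocytes exposed to palmitate (PA) and hepatocytes given Vehicle. The comparison was chosen by the titles in the sample labels and took 4 of the 10 libraries of the study, 2 with PA and 2 with Vehicle. The PA cells received 200 μM PA for 24 h without NTP (Neurotropin, the drug whose action the study examined), and the Vehicle cells received neither a fatty acid nor NTP. Beside them stand the values of 2 libraries exposed to linoleate (LA), an unsaturated fatty acid, at 12 μM for 24 h. The PA and LA doses differ, so the fatty acid and its dose cannot be told apart. The other 4 libraries had NTP for 1 h before PA or LA and entered only the estimate of the spread and the means over all libraries. All groups held liver cells of C57BL/6 mice, isolated by collagenase perfusion, plated on collagen and kept in DMEM with 10% FBS, with a serum-free night before the exposure. What the Vehicle contained, and how many mice or cultures lay behind the libraries, were not given in the sources used here. The p-values therefore measure the spread between these libraries, which may be technical.

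Palmitate is a long-chain saturated fatty acid that hepatocytes activate to palmitoyl-CoA and then oxidise, desaturate, store as triglyceride or use for ceramide. An excess of saturated fatty acid is known to disturb the endoplasmic reticulum, where hepatocytes fold the plasma proteins they secrete, and a set of chaperones is then induced through the unfolded protein response. Saturated fatty acids are also known to engage NF-kappaB, a factor that drives cytokine and chemokine genes.

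Expected counts, which are RSEM's estimates of the reads belonging to each gene, totalled 18795990 and 26900384 in the Vehicle libraries and 13142588 and 39052570 with PA. Levels are given as FPKM, fragment counts scaled to transcript length and to library size, always with replicate 1 before replicate 2. Of 18055 genes with a value in any library, 14097 passed the filter on low counts and were tested with edgeR's quasi-likelihood test. A gene was called when its Benjamini-Hochberg adjusted p was under 0.05 and it differed at least 1.5-fold. Differences are log2 of PA over Vehicle with their standard error. The 8 hepatocyte markers summed to 4148 and 3918 FPKM with Vehicle and to 2879 and 2577 with PA, and 4 of them were called lower (3 with the trend removed). The markers of T and NK cells (at most 1.05 FPKM in sum) and of B cells (at most 0.08) were close to absent. Of neutrophil markers, S100a8, S100a9, Ly6g, Mpo and Retnlg were at 0 in the 4 libraries, and Camp had 0.13 FPKM in Vehicle replicate 2 alone. Cxcr2, the only neutrophil marker tested, stood at 6.89 and 6.8 FPKM with Vehicle and 5.44 and 4.28 with PA, and was not called. Cholangiocyte markers summed to 616.1 and 583.4 FPKM with Vehicle and to 528.8 and 406.7 with PA, most of it from 1 gene. The markers of Kupffer cells and macrophages, of which 10 were tested, summed to 217.3 and 218.5 FPKM with Vehicle and to 218.4 and 252.7 with PA. In whole cultures, fewer cells of a type and less RNA per cell cannot be told apart.

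The difference between PA and Vehicle ran with the base composition of the transcript. Across genes, each library's deviation from the mean of all libraries had a Spearman correlation with GC content of 0.423 and 0.388 in the Vehicle libraries and of -0.470 and -0.481 in the PA libraries, a description across genes that are not independent of each other. In the LA libraries the correlation was -0.571 and -0.565, so the trend was not particular to PA. The fitted trend of the PA difference was 0.41 at 40% GC, close to 0 at 50% and -0.44 at 60%. Among 622 tested genes under 40% GC, 173 were called higher with PA (27.8%) and 13 lower (2.09%). Among 623 genes of at least 60% GC, 2 were called higher (0.321%) and 199 lower (31.9%). When the trend was removed, these became 19 higher and 35 lower in the first class, and 25 and 33 in the second. Counts over the gene lists are therefore given with and without the trend, and a named gene that lost its call with the trend removed is marked as such. The cause of the trend was not tested.

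**Figure D1:**
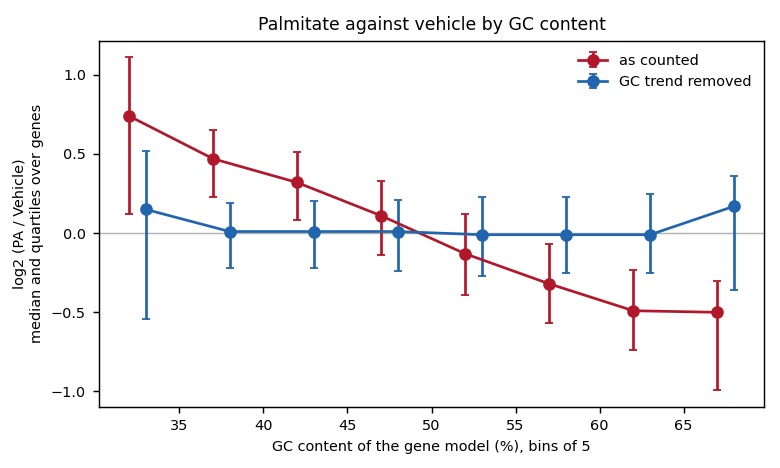
Median log2 difference between PA and Vehicle (y axis) in classes of transcript GC content (x axis, percent), before and after removal of the trend. The median ran from 0.47 at 35 to 40% GC to -0.49 at 60 to 65%, and was 0.01 and -0.01 in the same classes once the trend was removed.

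With PA, 846 genes were called higher and 1257 lower, 6% and 8.92% of the genes tested. With the trend removed the counts were 449 (3.19%) and 750 (5.32%), and 297 higher and 590 lower genes were called both ways, that is with the trend in place and with it removed. The counts given below for each gene list are to be read against these shares. Most changes were of moderate size. The median called gene was 1.66-fold higher or 1.81-fold lower, and 75 genes rose and 80 fell by at least 4-fold. The FPKM of the groups did not overlap in 843 of the higher and 1255 of the lower genes. That alone says little, since 33.4% of all genes tested lay wholly higher and 38.9% wholly lower with PA. Genes of an average FPKM of at least 100 gave 58 higher and 52 lower calls among 756, and genes under 1 FPKM gave 136 and 267 among 3008.

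**Figure D2:**
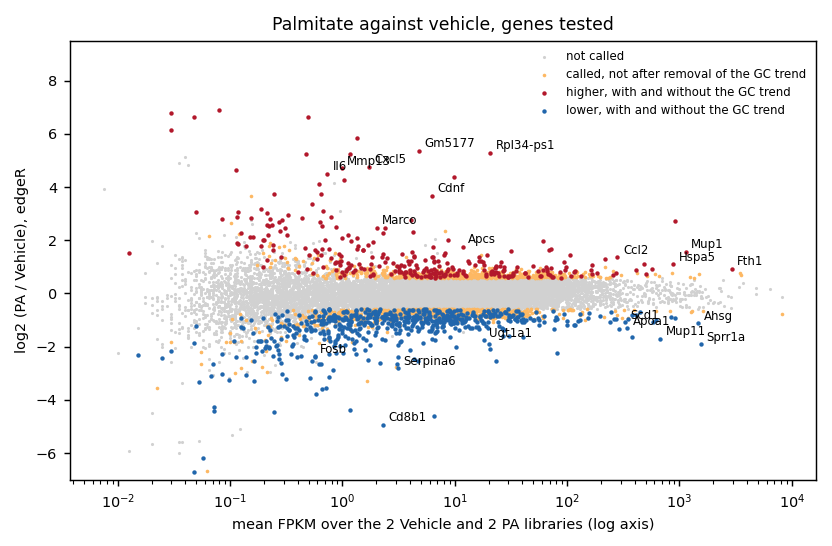
Log2 difference between PA and Vehicle (y axis) against mean FPKM over the 4 libraries (x axis, log scale) for each gene tested, with called genes in colour. The genes of largest difference, among them Myl2 at 7.99, are not drawn. The 846 higher and 1257 lower genes spread over the whole range of levels.

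Among the most abundant RNAs that changed were those of an iron store, a structural protein and a plasma protein. Fth1, the ferritin heavy chain, stood at 2156 and 1941 FPKM with Vehicle and 3733 and 3816 with PA, a difference of 0.92 ± 0.08 (edgeR adjusted p = 9.71e-07). It was 2840.3 and 2418 FPKM in the LA libraries, at the other dose. Sprr1a, a small proline-rich protein first known from the epidermis, stood at 2463 and 2458 FPKM with Vehicle and 577 and 701 with PA, 3.76-fold lower (-1.91 ± 0.13). Both pairs of libraries lay well apart. Ahsg, which encodes the plasma glycoprotein fetuin-A, went from 2110.3 and 1888 to 996 and 860.5 FPKM (-1.13 ± 0.099), against 2206 and 2251 with LA. All 3 were called with the trend removed too.

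The largest differences included genes of mostly unique sequence. Gm5177 stood at 0.25 and 0.22 FPKM with Vehicle, 9.09 and 9.81 with PA and 10.96 and 11.6 with LA (5.36 ± 0.15), and shares 10.7% of its stretches of 31 bases with other genes. Cdnf, a secreted protein of the endoplasmic reticulum, stood at 0.98 and 0.9 FPKM with Vehicle, 11.2 and 12.1 with PA and 12.3 and 13.7 with LA (3.68 ± 0.14), with 2.67% shared. In both, PA and LA lay side by side, at unequal doses, and far above Vehicle. Lrrc17 stood at 0.08 and 0.05 FPKM with Vehicle, from 3.15 and 3.15 expected counts, and at 2.05 and 2.45 with PA (5.25 ± 0.47). Cd8b1, known as a T cell coreceptor chain, stood at 4.47 and 4.34 FPKM with Vehicle and 0.23 and 0.11 with PA (-4.93 ± 0.299). With LA, Lrrc17 stood at 2.49 and 2.48 FPKM and Cd8b1 at 0.1 and 0.16. All 4 were called with the trend removed too, and none of them was called between PA and LA.

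Other large differences had no reads in a group or sat on sequence that other genes share. Rn28s1, a ribosomal RNA gene, had 0 counts in both Vehicle libraries. It had 162.3 and 526.38 counts with PA (2.58 and 2.82 FPKM), at least 201-fold higher when 3 counts over the group are taken as the floor. How much of its sequence other genes share was not measured. Rpl34-ps1 was among the 12 genes with the largest rise, but 100% of its stretches of 31 bases occur in other genes. The sum of Rpl34 and Rpl34-ps1 was 706.5 and 609.1 FPKM with Vehicle and 536.3 and 545.7 with PA. Among the major urinary protein genes, close copies that encode pheromone carriers, Mup1 stood at 628 and 549 FPKM with Vehicle and 1719 and 1676 with PA, while Mup11 stood at 1094 and 975 with Vehicle and 314 and 302 with PA. These share 70.2% and 83.3% of their 31-base stretches with other genes, so how reads were divided among the copies is uncertain. The sum over 21 Mup genes was 21340 and 19870 FPKM with Vehicle and 25580 and 26030 with PA. Of 18 tested Mup genes 5 were higher and 2 lower, and 2 and 5 with the trend removed. Their median was 0.34, and -0.04 with the trend removed.

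Of 17 genes of cardiac muscle looked up, 13 were tested. With the trend in place 9 were called higher and 1 lower, against 6% and 8.92% of all genes tested. The 17, and those named here, were chosen after their values were seen, so these counts are no test. Myl2, the ventricular myosin light chain, had 0 counts in both Vehicle libraries and 1.5 and 1.73 FPKM with PA, at least 15.5-fold higher. Myh6, a cardiac myosin heavy chain, had 0 and 0 expected counts with Vehicle, 57.81 and 211.1 with PA, and 21.49 and 11.93 with LA. Mb, myoglobin, had 0 and 0 counts with Vehicle, 13 and 40 with PA, and 0 and 0 with LA. These 3 passed the filter on low counts only through groups in which they are present, and were called with and without the trend. Actc1, cardiac actin and the most abundant of 17 cardiac genes looked up, was lower with PA, at 12.9 and 15.8 FPKM with Vehicle and 10.04 and 8.21 with PA (-0.66 ± 0.13), and was not called with the trend removed (-0.55). Acta1, skeletal actin, was lower too (-0.88 ± 0.11) and lost its call in the same way (-0.57). Summed as CPM, which scales counts to library size, the 17 cardiac genes stood at 23.8 and 27.4 with Vehicle and at 32.2 and 30.1 with PA. Actc1 weighed heavily in that sum, with 335.04 and 584.03 of 446.74 and 736.78 counts with Vehicle. With PA it held 182 and 441.98 of 423.01 and 1174.64. The source of the reads in these muscle genes was not tested.

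Several chaperones of the endoplasmic reticulum rose with PA. Of 30 tested genes of the unfolded protein response, 12 were called higher and 1 lower, with a median of 0.43 against -0.01 over all genes tested. With the trend removed 10 were higher and none lower, and the median was 0.27, against 0.00 over all genes. The promoters of 3 members that rose both ways and of the 1 that fell are shown for the ER stress element, known from chaperone promoters. Each line holds 250 bases before and 50 after the start, from RefSeq on GRCm38.p6, and capitals mark this element, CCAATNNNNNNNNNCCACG, read on both strands. Hspa5 lies at chr2:34771840-34772139 on the + strand, Hsp90b1 at chr10:86705395-86705694 on the - strand, Creld2 at chr15:88819396-88819695 on the + strand and Syvn1 at chr19:6046326-6046625 on the + strand.
Hspa5: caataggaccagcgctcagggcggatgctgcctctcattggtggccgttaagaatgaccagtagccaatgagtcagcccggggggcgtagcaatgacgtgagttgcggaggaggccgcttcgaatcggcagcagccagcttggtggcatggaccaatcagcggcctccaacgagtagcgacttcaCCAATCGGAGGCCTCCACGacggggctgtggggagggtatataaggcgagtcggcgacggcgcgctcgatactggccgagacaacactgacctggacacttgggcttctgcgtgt
Hsp90b1: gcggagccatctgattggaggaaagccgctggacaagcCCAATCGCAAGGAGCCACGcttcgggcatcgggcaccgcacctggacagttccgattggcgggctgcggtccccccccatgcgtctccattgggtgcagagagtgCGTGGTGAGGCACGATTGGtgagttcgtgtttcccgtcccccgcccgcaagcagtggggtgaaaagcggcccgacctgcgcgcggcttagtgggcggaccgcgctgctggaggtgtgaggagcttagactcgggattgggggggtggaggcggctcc
Creld2: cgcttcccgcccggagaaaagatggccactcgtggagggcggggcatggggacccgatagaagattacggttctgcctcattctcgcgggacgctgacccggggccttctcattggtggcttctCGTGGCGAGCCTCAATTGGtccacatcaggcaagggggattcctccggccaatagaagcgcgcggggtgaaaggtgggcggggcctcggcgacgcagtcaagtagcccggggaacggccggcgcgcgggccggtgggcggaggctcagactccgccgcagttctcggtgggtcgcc
Syvn1: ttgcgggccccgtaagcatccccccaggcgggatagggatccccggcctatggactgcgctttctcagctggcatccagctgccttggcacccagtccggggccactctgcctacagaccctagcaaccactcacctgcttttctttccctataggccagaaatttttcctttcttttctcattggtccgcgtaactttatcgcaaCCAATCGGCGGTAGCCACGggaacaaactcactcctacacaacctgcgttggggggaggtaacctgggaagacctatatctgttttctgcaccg

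The element lay 65 to 47 bases before the start of Hspa5 and 126 to 108 bases before that of Creld2, and Hsp90b1 held 2 copies. It was found in 37 of 27025 promoters of the table (0.137%) and in 21 of 11128 tested genes with a promoter there (0.189%). Among genes called higher both ways it stood in 5 of 216 (2.31%), and among those lower both ways in 0 of 450. In the unfolded protein response list it stood in 10 of 26 promoters, and in 5 of the 11 with a higher call. Syvn1, which carries it 44 to 26 bases before its start, was called lower. A match describes the letters in this window and shows no binding.

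Hspa5, the BiP chaperone that binds unfolded chains in the lumen, stood at 593 and 558 FPKM in the Vehicle libraries and 1184 and 1207 in the PA libraries. The groups were far apart and their replicates close, with a difference of 1.09 ± 0.06 (edgeR adjusted p = 2.74e-08) that was 0.97 with the trend removed. The LA libraries lay between them at 818 and 779 FPKM. Hsp90b1, the GRP94 chaperone, went from 316 and 315 to 666 and 647 FPKM (1.09 ± 0.06), with LA at 483 and 487.

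Smaller helpers of folding moved with them. Sdf2l1, a partner of BiP, stood at 11.1 and 9.41 FPKM with Vehicle and 21.7 and 23.9 with PA (1.2 ± 0.13), and Creld2, a disulfide isomerase, at 27.1 and 21.8 with Vehicle and 48.4 and 45.5 with PA (0.98 ± 0.11). Both exceeded the LA libraries, by 0.74 and 0.802 log2 units at unequal doses. Manf, a secreted protein of the stressed reticulum, went from 49.6 and 49.1 to 98.2 and 90.1 FPKM (0.96 ± 0.07). The protein disulfide isomerases Pdia3, Pdia4 and Pdia6 were called higher by 0.72, 0.88 and 0.79, with and without the trend. Canx and Ero1a were called higher only with the trend left in, at 0.64 and 0.62, and differed by 0.31 and 0.27 without it. Dnajb9 (0.598) lost its call with the trend removed (0.21), without PA replicate 1 (0.53) and without Vehicle replicate 2 (0.55).

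Not every gene of the response moved in level. Xbp1, the factor spliced by IRE1, differed by -0.14, Herpud1, a degradation factor, by -0.03, and Calr, calreticulin, by 0.296, none of them called. Counts per gene do not show the splicing of Xbp1. Syvn1, the HRD1 ubiquitin ligase of degradation, stood at 23.2 and 21.2 FPKM with Vehicle and 11.3 and 12.6 with PA (-0.81 ± 0.08). Its difference was -0.48 and not called with the trend removed. Of the 30 members, 3 were called higher with PA than with LA, where 167 of all genes tested (1.18%) were higher and 288 (2.04%) lower.

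The branch through ATF4, which translates amino acid and oxidant stress into transcription, gave fewer calls. Of 37 tested targets 1 was higher and 3 lower, with a median of 0.17, and 5 were higher and none lower with the trend removed (median 0.27). Ddit3, the CHOP factor, stood at 36.7 and 38.1 FPKM with Vehicle and 53.9 and 43.6 with PA. Its difference of 0.397 ± 0.103 was under the 1.5-fold threshold, and 0.64 with the trend removed was called. Trib3, a pseudokinase target of CHOP, stood at 20.4 and 20.5 with Vehicle and 25.9 and 26.2 FPKM with PA, and its 0.38 became 0.74 and was called. Atf4 itself differed by -0.05 and Asns, asparagine synthetase, by 0.23, both uncalled. Vldlr, a lipoprotein receptor, rose from 0.32 and 0.37 to 0.95 and 0.75 FPKM (1.29 ± 0.23), called both ways. Gdf15, a stress hormone, fell from 33.3 and 28.7 to 14.8 and 18.2 FPKM (-0.85 ± 0.14) and was not called with the trend removed (-0.36). The ATF4 element was found in 11 of 30 promoters of this list, against 2.91% of tested genes.

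**Figure D3:**
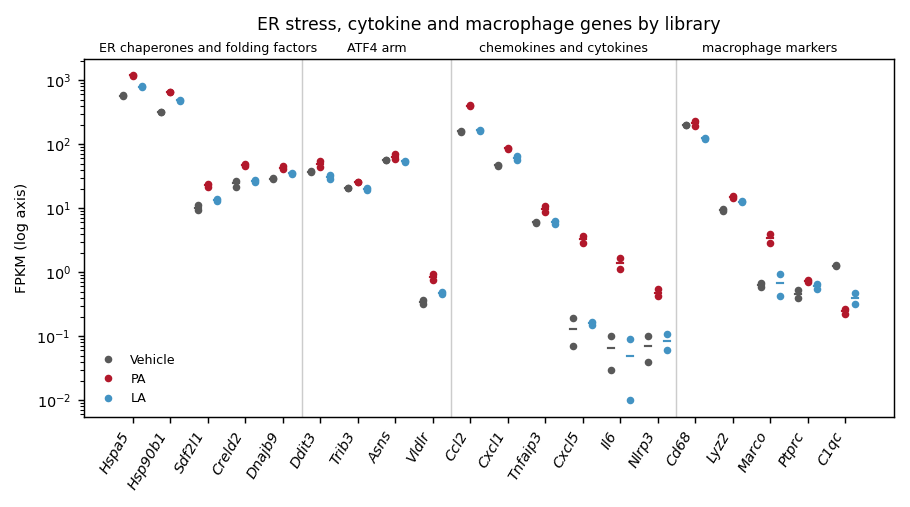
FPKM (y axis, log scale) of endoplasmic reticulum, ATF4 and cytokine genes (x axis), with 1 point for each Vehicle, PA and LA library. PA points lie above both Vehicle points for Hspa5, Hsp90b1, Ccl2, Cxcl5 and Il6, and a value of 0, as for Il6 in LA replicate 2, is drawn at 0.01.

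A number of cytokine and chemokine genes rose with PA. Of 36 tested genes of the NF-kappaB list, 15 were called higher and 1 lower, against 6% and 8.92% of all genes, with a median of 0.56. With the trend removed 14 were higher and none lower (median 0.52), and 13 were higher both ways. Against the LA libraries 14 were higher and none lower. The chemokines Cxcl1 and Cxcl2 and the cytokine Il6 are shown with their promoters, in which capitals mark the NF-kappaB element on either strand (matches on both can overlap), a search added after the data had been seen. They lie at chr5:90890995-90891294, chr5:90903649-90903948 and chr5:30012864-30013163, all on the + strand.
Cxcl1: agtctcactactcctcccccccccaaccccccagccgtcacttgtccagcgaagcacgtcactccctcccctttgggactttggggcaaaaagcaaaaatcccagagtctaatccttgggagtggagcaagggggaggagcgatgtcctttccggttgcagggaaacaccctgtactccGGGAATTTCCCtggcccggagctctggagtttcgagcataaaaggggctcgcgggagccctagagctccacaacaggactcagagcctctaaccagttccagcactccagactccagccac
Cxcl2: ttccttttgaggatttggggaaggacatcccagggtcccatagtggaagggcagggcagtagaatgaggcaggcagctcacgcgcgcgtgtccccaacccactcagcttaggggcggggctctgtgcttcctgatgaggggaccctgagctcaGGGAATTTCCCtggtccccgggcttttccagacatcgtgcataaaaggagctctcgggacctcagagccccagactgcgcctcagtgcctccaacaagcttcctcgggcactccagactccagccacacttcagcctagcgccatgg
Il6: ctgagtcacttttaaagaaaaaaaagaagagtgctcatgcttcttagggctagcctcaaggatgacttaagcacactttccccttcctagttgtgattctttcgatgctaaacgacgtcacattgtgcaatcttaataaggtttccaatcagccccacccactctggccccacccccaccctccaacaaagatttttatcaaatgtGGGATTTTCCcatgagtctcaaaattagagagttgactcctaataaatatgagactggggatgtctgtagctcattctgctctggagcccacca

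In these windows the element lay 71 to 62 bases before the start of Cxcl1, 97 to 88 before that of Cxcl2 and 44 to 35 before that of Il6. It was found in 1074 of 11128 tested genes (9.65%), in 34 of 216 genes called higher both ways (15.7%), in 54 of 450 called lower both ways (12%) and in 14 of 26 promoters of the list.

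Ccl2, the main attractant of monocytes, stood highest of these, at 162 and 158 FPKM with Vehicle and 393 and 411 with PA, while the LA libraries held 169 and 162. The PA libraries stood 2.57-fold above Vehicle (1.36 ± 0.06, edgeR adjusted p = 3.83e-09). Cxcl1, an attractant of neutrophils, went from 46.3 and 47.6 to 88.3 and 83.7 FPKM (0.903 ± 0.08), with LA at 65.5 and 56.1. Cxcl5, of the same family, went from 0.19 and 0.07 to 3.74 and 2.87 FPKM (4.76 ± 0.54), with LA at 0.15 and 0.17. Both PA libraries lay above every Vehicle and LA library for these 3 genes. Cxcl2 rose by 1.34 and Ccl7, another monocyte attractant, by 1.39, both called also with the trend removed.

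The cytokines themselves were scarce. Il6 stood at 0.10 and 0.03 FPKM with Vehicle, from 3 expected counts in all, and at 1.14 and 1.65 with PA. That is a ratio of 24.8 whose exact 95% interval for counting error alone ran from 8.21 to 122.7. Il1b, interleukin 1 beta, went from 0.12 and 0.06 to 1.56 and 0.86 FPKM and was listed in neither LA library. Its difference was 3.75 ± 0.65. Il1a rose by 1.66, Tnf by 1.17 and Nlrp3, the inflammasome sensor, by 2.68. Mmp13, a collagenase, went from 0.08 and 0.07 to 1.84 and 1.94 FPKM (4.698 ± 0.37), and Clec4e, a receptor of myeloid cells, from 0.08 and 0.06 to 1.08 and 1.28 (4.103 ± 0.42). All of these were called with and without the trend, but Tnf, at 0.53 and 0.53 FPKM with Vehicle and 1.46 and 0.97 with PA, lost its call without Vehicle replicate 1 (1.17), Vehicle replicate 2 (1.17) or PA replicate 1 (0.90). Il6, Il1b, Clec4e and Mmp13 had at most 5 counts in a Vehicle library. They passed the filter on low counts only through groups in which they are higher, and Il6 and Il1b are among the 15 listed genes called higher.

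Nfkbie, an inhibitor of NF-kappaB, rose by 0.64, with no call left without Vehicle replicate 2 (0.57). Nfkbia, a further inhibitor, stood at 33.2 and 30.8 FPKM with Vehicle and 45.03 and 46.4 with PA, and its 0.55 was called only with the trend removed (0.69). Tnfaip3, the A20 enzyme, went from 6.18 and 5.97 to 10.8 and 8.75 FPKM (0.68 ± 0.103) but was not called without PA replicate 1 (0.54). Rela, the p65 subunit, fell by 0.60 and was not called with the trend removed (-0.19) or without Vehicle replicate 1 (-0.58).

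Myeloid genes moved in part. Of the 10 tested markers of Kupffer cells and macrophages 3 were called higher and 1 lower, and 2 and 1 with the trend removed. Marco, a scavenger receptor, stood at 0.67 and 0.58 FPKM with Vehicle, 3.95 and 2.9 with PA and 0.42 and 0.94 with LA. Lyz2, lysozyme, stood at 9.15 and 9.81 with Vehicle and 15.8 and 14.6 FPKM with PA and Ptprc, the CD45 antigen, at 0.4 and 0.52 with Vehicle and 0.7 and 0.75 with PA, called with the 4 libraries but not with any of them left out (0.52 to 0.91) or with the trend removed (0.33), while C1qc of complement stood at 1.27 and 1.28 with Vehicle and 0.22 and 0.27 with PA. Cd68, which makes up most of the summed level, stood at 203 and 203 with Vehicle and 195 and 232 FPKM with PA and was not called, and neither were Adgre1, Csf1r and Clec4f. The part of these cells in the cytokine difference was not tested. Markers of sinusoidal endothelium gave 0 higher and 1 lower call (none with the trend removed), and those of stellate cells and fibroblasts 0 and 5 (0 and 2).

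Interferon-stimulated genes split. Of 42 tested, 7 were higher and 2 lower, also 7 and 2 with the trend removed, with medians of 0.23 and 0.33. The 7 became 3 without Vehicle replicate 1 or PA replicate 1, and 12 without PA replicate 2. Gbp3, a guanylate-binding protein, went from 2.25 and 1.95 to 7.56 and 4.91 FPKM (1.57 ± 0.26), Gbp2 from 8.04 and 7.49 to 14.5 and 13.8 (0.895 ± 0.104) and Rsad2, viperin, from 2.41 and 2.18 to 6.65 and 4.08 (1.21 ± 0.29). In Gbp3 and Rsad2, PA replicate 1 stood above replicate 2. Isg15, with a difference of 0.75, was not called without PA replicate 1 (0.44), Vehicle replicate 1 (0.74) or Vehicle replicate 2 (0.76). Cxcl10, a chemokine of T cells, was lower, at 15.4 and 14.7 FPKM with Vehicle and 11.03 and 6.73 with PA (-0.81), but not without PA replicate 2 (-0.41). No member differed by a call from LA.

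Acute-phase proteins, which the liver secretes in inflammation, did not move as a group. Of 29 tested, 3 were higher and 1 lower, with a median of 0.07 and, with the trend removed, 0.13. The pentraxins rose, Apcs (serum amyloid P) from 5.62 and 5.31 to 20.8 and 15.7 FPKM (1.75 ± 0.23) and Crp from 15.7 and 16 to 32.1 and 29.5 (0.98 ± 0.11). Serpina3n, an antichymotrypsin, fell by 1.02. Hamp2, a hepcidin, had 0 counts with Vehicle and 6.13 and 13.62 with PA, at least 5.76-fold higher, but its call was lost without Vehicle replicate 1 (a fitted difference of 6.71), Vehicle replicate 2 (6.67) or PA replicate 2 (6.84). Saa1 (-0.02), Hp (0.07) and Lcn2 (0.35) were not called.

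Some secreted products of the hepatocyte fell. Of 46 tested plasma proteins and coagulation factors none was higher and 16 were lower, with a median of -0.38. With the trend removed 13 were lower, 12 of them called both ways, and the median was -0.39. Ttr, the carrier of thyroxine, stood at 59.4 and 48.1 FPKM with Vehicle and 33.03 and 22.97 with PA (-0.95 ± 0.16). Serpinf2, the inhibitor of plasmin, went from 80.4 and 74.7 to 37.7 and 29.96 FPKM (-1.18 ± 0.14). Serpina6, which carries corticosteroids in blood, went from 6.26 and 4.48 to 1.05 and 0.6 FPKM (-2.81 ± 0.37). In each, both PA libraries lay below both Vehicle libraries.

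The alpha-1-antitrypsin genes, near-identical copies, fell together. Serpina1a, Serpina1b and Serpina1c differed by -0.73, -0.91 and -0.99, and the sum over the 5 Serpina1 genes, which does not depend on how reads were split, was 2623 and 2428 FPKM with Vehicle, 1463 and 1353 with PA, and 2571 and 2372 with LA. Alb, albumin, stood at 2594 and 2529 FPKM with Vehicle and 2124 and 1929 with PA, a difference of -0.31 ± 0.07 that was not called. Of the 46 genes 13 were lower with PA than with LA and none higher.

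Genes of lipoprotein handling were among those that fell. Of 28 tested, none was higher and 15 were lower (median -0.65). With the trend removed 10 were lower and 1 higher (median -0.43). Apoa1, the structural protein of high-density lipoprotein, stood at 547 and 440.4 FPKM with Vehicle, 208 and 181 with PA and 571 and 468 with LA, a difference of -1.32 ± 0.14 from Vehicle. The PA libraries were the lowest of the 6. Apoc2, the cofactor of lipoprotein lipase, differed by -1.59 and Tm6sf2, which loads lipid onto secreted particles, by -1.76. Apob and Mttp, which form the particle itself, each differed by 0.00 and were not called.

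**Figure D4:**
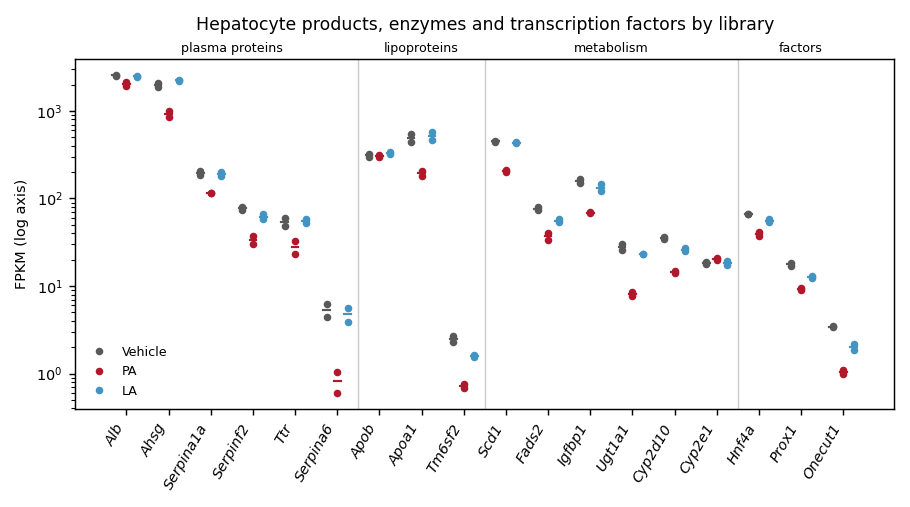
FPKM (y axis, log scale) of hepatocyte products, enzymes and transcription factors (x axis), with 1 point for each Vehicle, PA and LA library. PA points lie below both Vehicle points for Ahsg, Apoa1, Scd1 and Ugt1a1, whose LA points lie nearer the Vehicle points.

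Transcription factors of the hepatocyte gave 0 higher and 7 lower calls among 30, with a median of -0.24, and 1 and 4 with the trend removed (median -0.15). Onecut1, the HNF6 factor, went from 3.48 and 3.41 to 1.09 and 0.98 FPKM (-1.72 ± 0.33) and Prox1, a factor of liver development, from 18.3 and 17.2 to 9.03 and 9.42 (-0.91 ± 0.07). Foxa3, a pioneer factor, differed by -0.83. Hnf4a, the central regulator of hepatocyte genes, went from 67.05 and 66.5 to 37.2 and 41.6 FPKM (-0.73 ± 0.06). It differed by -0.56 with the trend removed and was not called there.

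Drug metabolism genes gave more lower than higher calls. Of 53 tested cytochrome P450 and related genes 2 were higher and 11 lower (median -0.34), and 2 and 16 with the trend removed (median -0.49). Without PA replicate 2, 7 were lower. Ugt1a1, which conjugates bilirubin, stood at 26.03 and 29.9 FPKM with Vehicle, 8.53 and 7.79 with PA and 23.3 and 22.9 with LA (-1.76 ± 0.09). Cyp2d10, a P450 of drug oxidation, went from 34.6 and 35.9 to 14.1 and 15.02 FPKM (-1.24 ± 0.12). Cyp1a1, the target of the aryl hydrocarbon receptor, went the other way, from 0.29 and 0.32 to 1.11 and 0.66 FPKM (1.55 ± 0.37). Cyp2e1, the ethanol-oxidising form, differed by 0.18 and was not called. Against LA, 1 of the 53 was higher and 15 lower.

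Among 22 genes of bile acid synthesis and transport none was higher and 5 were lower (median -0.17, and -0.29 with the trend removed, when 3 were lower). The 5 became 1 without Vehicle replicate 1 and 3 without each other library. Nr0b2, the SHP repressor, differed by -1.78. Baat, which conjugates bile acids, and Slc10a1, their importer, were called lower, at -0.64 and -0.79. Baat lost its call without Vehicle replicate 1 (-0.62), Vehicle replicate 2 (-0.66) or PA replicate 2 (-0.55). Slc10a1 lost it without each of the 4 libraries in turn, at -0.87 to -0.65.

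Of 51 tested genes of glucose metabolism and insulin signalling 1 was higher and 10 lower, with a median of -0.06, and 2 and 6 with the trend removed. Igfbp1, a binding protein of insulin-like growth factors, went from 167 and 151 to 69.4 and 68.95 FPKM (-1.17 ± 0.08) and Igf1, the growth factor, from 42.3 and 44.1 to 21.5 and 22.7 (-0.85 ± 0.08). Both genes were called both ways, and the log2 of PA over LA was -0.96 and -0.95, at unequal doses. Irs2, the insulin receptor substrate, differed by -0.85 and lost its call with the trend removed (-0.56). Among 41 genes of the urea cycle and amino acid catabolism 2 were higher and 5 lower, 1 and 2 with the trend removed, and the 5 became 2 without Vehicle replicate 1 and 1 without PA replicate 2. Among those higher, Oat, ornithine aminotransferase, rose by 0.85. Against LA, 5 of them were lower and none higher.

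Among the enzymes that handle fatty acids, both desaturases named here fell. Scd1, which turns palmitate into palmitoleate, stood at 444 and 459 FPKM with Vehicle, 201 and 212 with PA and 437 and 428 with LA. It was 2.13-fold lower than with Vehicle (-1.09 ± 0.06, edgeR adjusted p = 2.25e-08), and -1.22 with the trend removed. Fads2, a desaturase of polyunsaturated fatty acids, went from 73.2 and 79.5 to 33.5 and 40.4 FPKM (-1 ± 0.08). As analysed over all libraries they were the only called genes among 30 of lipogenesis, desaturation and triglyceride synthesis, with and without the trend, where the median was -0.28 (-0.08 with the trend removed). Without Vehicle replicate 1 or PA replicate 2, 4 members were lower. Fasn, fatty acid synthase, differed by -0.55, and by -0.198 with the trend removed, and was not called.

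Of 42 tested PPARA targets and oxidation genes 2 were higher and 3 lower, 1 and 3 with the trend removed, with a median of -0.07. Acadl, a mitochondrial dehydrogenase of long acyl chains, went from 64.2 and 62.8 to 108 and 109 FPKM (0.81 ± 0.07). Acaa1b, a peroxisomal thiolase, and Ucp2, an uncoupling protein, differed by -1.11 and -1.51. The classic induced targets Cpt1a (-0.29), Pdk4 (0.31) and Angptl4 (0.14) were not called. The PPAR response element was found in 0 of 32 promoters of this list and in 0.0988% of tested genes.

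Lipid storage genes gave 1 higher and 3 lower calls among 23, and 1 and 0 with the trend removed. Plin2, the coat of the droplet, stood at 455 and 466 FPKM with Vehicle and 501 and 591 with PA (0.28 ± 0.08), not called. Hilpda, an inhibitor of lipolysis, went from 10.1 and 9.81 to 15.1 and 15.3 FPKM (0.64 ± 0.16). Uptake and activation of fatty acids gave 2 and 2 calls among 22 (2 and 1 with the trend removed), and Cd36, a fatty acid carrier, differed by 0.53 without a call. Cholesterol synthesis gave 0 and 3 among 28 (0 and 1), and ceramide synthesis 1 and 2 among 24 (0 and 1).

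Several immediate early genes were lower after 24 h. Of 32 tested genes of the JNK and AP-1 list 1 was higher and 7 lower (median -0.29), and 2 and 4 with the trend removed (median -0.05). Fos stood at 4.11 and 3.08 FPKM with Vehicle and 1.41 and 1.44 with PA (-1.29 ± 0.21), and Egr1 at 67.9 and 67.7 with Vehicle and 30.6 and 34.7 with PA (-1.02 ± 0.07). Zfp36, which destabilises cytokine mRNA, differed by -1.02. Jund was called lower only with the trend in place (-0.603, against 0.08 without it) and not without Vehicle replicate 1 (-0.55). Jun (-0.31) and Atf3 (0.16) were not called. Gadd45a, a stress gene of growth arrest, rose from 55.7 and 53.9 to 87.7 and 83.5 FPKM (0.68 ± 0.09).

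Some clock and proliferation genes were lower in the PA libraries, where 8.92% of all genes tested were called lower (5.32% with the trend removed). Of 21 clock genes none was higher and 4 were lower (3 with the trend removed), with medians of -0.30 and -0.21. The 4 became 2 without Vehicle replicate 1 or PA replicate 2. Per1 went from 5.95 and 6.03 to 2.72 and 2.97 FPKM (-1.03 ± 0.12). Nr1d1, the REV-ERB alpha repressor, differed by -0.98. Of 46 cell cycle genes 1 was higher and 6 lower, and 0 and 5 with the trend removed, with medians of -0.10 and -0.16. The 6 became 3 without PA replicate 1, a share under the 8.92% of all genes. Ube2c, of the anaphase complex, differed by -1.92 and Mki67, the proliferation antigen, by -0.73. Matrix and cytoskeleton genes gave 1 higher and 9 lower calls among 45 (0 and 9), with medians of -0.32 and -0.15. Fn1, fibronectin, stood at 324 and 342 FPKM with Vehicle and 159 and 147 with PA (-1.08 ± 0.07), and Cd24a, a surface antigen of immature epithelium, differed by -1.87.

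Chaperones of the cytosol and mitochondria gave 5 higher and 1 lower call among 21, and 3 and 0 with the trend removed, with medians of 0.24 and 0.25. Hspd1, the mitochondrial HSP60, went from 284 and 303 to 526 and 518 FPKM (0.86 ± 0.06), and Hsp90aa1 differed by 0.72, which was 0.46 and not called with the trend removed. Antioxidant genes gave 5 higher and 3 lower among 39 (7 and 1), with medians of 0.22 and 0.23, and the 5 became 3 without Vehicle replicate 2 or PA replicate 2. Gsr, glutathione reductase, went from 88.01 and 82.8 to 126 and 136 FPKM (0.65 ± 0.06), called both ways. Sod2, the mitochondrial superoxide dismutase, went from 24.8 and 24.4 to 43.4 and 39.9 FPKM (0.79 ± 0.07), and its 0.46 with the trend removed was not called. The NRF2 targets Hmox1 (0.13), Nqo1 (0.46) and Gclc (0.34) were not called.

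The nuclear genes of the respiratory chain gave 1 higher and 8 lower calls among 77 (1 and 4 with the trend removed), with medians of -0.07 and -0.02. Over all genes 8.92% were lower (5.32% with the trend removed), so the lower counts lay near the share of all genes. Uqcr10, of complex III, went from 138 and 132 to 62.3 and 65.8 FPKM (-1.04 ± 0.12) and Cox7c, of complex IV, from 378 and 348 to 199 and 171 (-0.95 ± 0.098). Mitochondrial biogenesis and dynamics gave 2 and 2 calls among 35 and none with the trend removed. Ogg1, which excises oxidised guanine, differed by -0.67 (-0.46 with the trend removed, not called), and the coactivators Ppargc1a (0.11) and Ppargc1b (-0.54, and -0.199 with the trend removed) were not called. AMPK subunits and kinases gave 1 and 0 calls among 15, and none with the trend removed. Mitochondrial ribosomal proteins gave 1 and 3 among 78 (2 and 3), and cytosolic ribosomal proteins 0 and 9 among 83 (0 and 7, median -0.07). The called ribosomal genes include Rpl36, of whose 31-base stretches 94.1% lie in other genes. Proteasome subunits gave 4 and 0 among 39 (1 and 0), with medians of 0.27 and 0.24.

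Autophagy and lysosome genes gave 1 higher and 4 lower calls among 48 (1 and 1), and Sqstm1, the p62 adaptor, differed by 0.51, called only with the trend removed (0.73). Apoptosis regulators gave 3 and 2 calls among 36 (1 and 1), and 1 was higher without Vehicle replicate 1 or PA replicate 2. Histone genes gave 0 and 3 among 16 (0 and 1), and small nucleolar RNA genes 2 and 1 among 25 (1 and 1). Genes with a Mir name gave 5 and 2 among 13 (4 and 2), and only these 13 of 145 were tested. Of those called, Mir1902, Mir568, Mir686 and Mir1892 share 100% of their sequence stretches with other genes, and Mir680-2 shares 86.2%. How reads were divided there is uncertain. The zinc finger genes named Zfp had a median GC content of 44.5%. Of 365 tested 48 were higher and 37 lower, but 3 and 19 with the trend removed, with 2 and 13 called both ways.

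**Figure D5:**
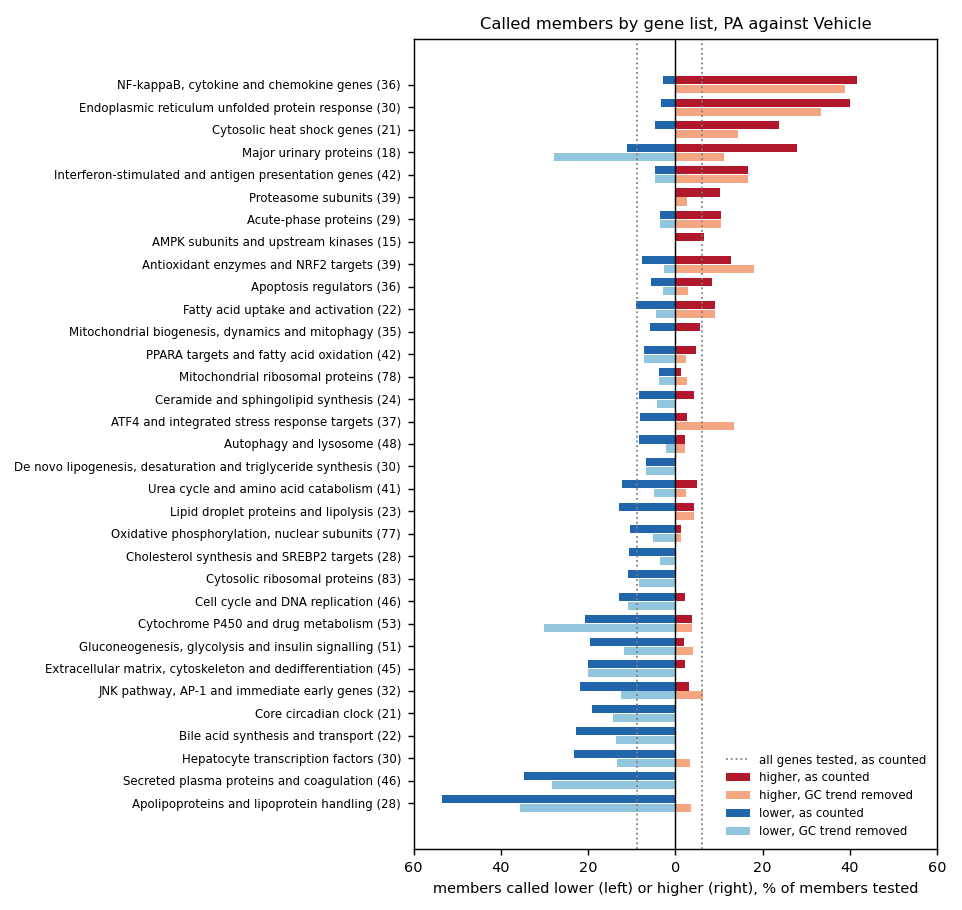
Share of tested members called higher (right of 0) or lower (left of 0) with PA, in percent (x axis), for 33 gene lists (y axis, members tested in brackets), as counted and with the trend removed. Dotted lines mark the 6% and 8.92% of all genes, and the NF-kappaB and unfolded protein response lists reach farthest to the right as counted, the plasma proteins and the apolipoproteins farthest to the left.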

How the data were processed

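Total RNA was extracted with Trizol and sequenced at BGI. Per the labels and the study's methods, the authors aligned reads with HISAT and Bowtie2 to mm10 and estimated expression with RSEM, whose versions were not given in the sources used here. The deposited tables hold, for each gene, an expected count, the transcript length and FPKM, which the methods call RPKM, and list only genes of at least 0.01 FPKM. Genes that a table did not list were set to 0 there. The authors called changes with NOISeq.

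After rounding, expected counts went into edgeR 4.0.16 under R 4.3.3 (TMM scaling, filterByExpr, quasi-likelihood F test, 1 factor of 5 groups over all 10 libraries, so that 2 libraries a group share 1 estimate of the spread). A call needed at least a 1.5-fold difference and an adjusted p (Benjamini-Hochberg) under 0.05. The biological coefficient of variation was 0.0682. With 2 libraries against 2, an exact permutation test of a single value cannot give a p below 0.333. GC content, taken from GENCODE transcript sequences, was found for 98.4% of genes. A loess trend of span 0.4 on it, fitted to each library's deviation from the mean of all libraries, was taken out as an offset. Intervals and floors cover counting error only. Of 18055 gene IDs, 46 could not be matched to RefSeq.

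The members and lists were chosen with earlier results of these data known, and no set test was run on any of the 37 lists. Genes were named as follows. From those called both ways, the 12 with the largest rise and the 12 with the largest fall were eligible, given 1 FPKM in the higher group, no overlap and no Mir or Snor name. Others were the 5 most abundant called genes in each direction, the anchor genes of each list, up to 4 called members of each list (all of them where 5 or fewer were called), and the 3 genes in each direction that lost their call most steeply with the trend removed. Cell type markers, and further members named in the text (among them Manf, Pdia3, Pdia4, Pdia6, Canx, Ero1a, Herpud1, Calr, Syvn1, Cxcl2, Ccl7, Il1a, Tnf, Nfkbie, Rela, Gbp2, Igf1, Irs2, Jund, Gadd45a, Gsr, Serpina1b and Serpina1c), were chosen after their values were seen. Some genes are not reported here. The code was tested on simulated data. Alternatives were DESeq2 1.42.0, limma 3.58.1 on log2(FPKM + 1) and log2(FPKM + 0.1), NOISeq as defined in its publication, other scalings and filters, removal of a length trend, thinning to the smallest depth, the replicate block, and each library left out. DESeq2's adjusted p given as NA was kept as NA.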

Additional observations from a re-analysis of the deposited data

Results flagged for a closer look

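Of the genes named, 60 differed between the PA and the LA libraries by the same edgeR test, fitted as PA minus LA (adjusted p under 0.05 and at least 1.5-fold), and 55 of them are given here. The 2 effects share their Vehicle libraries and the doses were 200 μM and 12 μM, so the fatty acid and the dose cannot be told apart. Values are log2 of PA over LA. Among inflammatory and myeloid genes, PA exceeded LA by 8.58 for Il1b, 6.24 for Clec4e, 4.75 for Il6, 4.29 for Cxcl5, 3.88 for Ccl4, 3.68 for Mmp13, 2.40 for Nlrp3, 1.27 for Ccl2, 0.86 for Lcn2 and 0.65 for Tnfaip3. Stress and other genes in the same direction were 1.36 for Apcs, 1.5 for Cyp1a1, 0.80 for Creld2, 0.78 for Vldlr, 0.74 for Sdf2l1, 0.74 for Hilpda, 0.67 for Sod2, 0.63 for Ddit3, 0.60 for Hmox1, 4.11 for Myl2 and 11.68 for Rn28s1. PA was below LA in secreted proteins and lipoprotein genes, with differences of -2.70 for Serpina6, -1.74 for Enho, -1.44 for Apoa1, -1.28 for Afm, -1.27 for Ahsg, -1.16 for Tm6sf2, -1.04 for Ttr, -0.96 for Igfbp1, -0.91 for Serpinf2, -0.74 for Serpina1a, -0.72 for Serpina3n, -0.74 for Mup20 and -0.60 for Fn1. Metabolic enzymes lay lower as well, at -2.63 for Cyp2a4, -2.12 for Uroc1, -1.53 for Ugt1a1, -1.20 for Acaa1b, -1.12 for Baat, -1.11 for Gckr, -1.09 for Acsm1, -1.08 for Scd1, -0.98 for Hgd, -0.84 for Cyp2d10, -0.65 for Gstm3, -0.60 for Mgll and -0.60 for Fads2. Further genes with lower values were -4.90 for S100g, -1.92 for Cd24a, -1.90 for Fosb, -1.5 for Mir686, -1.11 for Fos, -0.77 for Bmf, -0.66 for Sprr1a and -0.64 for Mki67. Il1b and Rn28s1 were listed in neither LA library, so their fitted values depend on the prior count and are no measure of size. Ccl4, Gckr, Hgd and Mgll lost their call against Vehicle with the GC trend removed. Ccl4 also lost it without Vehicle replicate 1, Vehicle replicate 2 or PA replicate 2. Gckr lost it without Vehicle replicate 1, PA replicate 1 or PA replicate 2, and Hgd without each Vehicle and PA library in turn. S100g, Cyp2a4, Uroc1 and Afm lost it without PA replicate 2. Their log2 of PA over Vehicle was then -2.55, -1.57, -1.29 and -0.65. Between PA and LA, 58 genes were called with the GC trend removed, and Gckr was not. Without PA replicate 2, 37 genes were called in place of 60.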

How the results depend on the processing

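No called gene picked by the naming rule changed sign under an alternative. Outside the rule, Jund went from -0.603 to 0.08 with the GC trend removed, and the balance of higher and lower calls turned there in the Mup, Zfp, ATF4 and lipid storage lists. It turned over all genes without a fold threshold and by NOISeq at 0.95. The counts of genes higher and lower with PA, 846 and 1257, stayed within 1.5 times under DESeq2 (794 and 1135), library-size scaling (711 and 1427), no filter (857 and 1359), a mean FPKM of at least 1 (598 and 1146), the groups compared alone (806 and 1283), a length trend removed (907 and 1198), limma on log2(FPKM + 0.1) (721 and 1449) and thinning (778 and 1214). Without a fold threshold they were 3310 and 3101. With the GC trend removed they were 449 and 750, by limma on log2(FPKM + 1) 426 and 813, and on quantile-normalized values 494 and 708. The NOISeq definition gave 7 and 1 at a probability of 0.95, and 284 and 449 at 0.8. Leaving out 1 library gave 766 to 845 and 1090 to 1200, and with the GC trend removed as well, an alternative added after the data had been seen, 398 and 589 without Vehicle replicate 1, 369 and 596 without Vehicle replicate 2, 393 and 711 without PA replicate 1, and 457 and 584 without PA replicate 2. Of the named genes, 60 were called between PA and LA, and 106 without a fold threshold, 0 and 38 by NOISeq at 0.95 and 0.8. The 60 became 37 without PA replicate 2, the lowest of 37 to 56 over the 4 libraries, and 38 to 57 with the GC trend removed too. The cause of these shifts was not tested, apart from those built into a threshold.

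Of 183 called named genes, 128 kept their call without each library in turn, 95 of these also with the GC trend removed, and 5 were called under every setting named here that yielded a value for them, those added later aside. Same-numbered libraries deviated together little (correlations of -0.085 to 0.129, and 0.011 between PA and Vehicle), so the numbers were not taken as pairs. The replicate block gave 857 and 1272 calls and 65 between PA and LA, and with the GC trend removed 456 and 771. Other list counts of at most 5 members also moved by over 1.5 times without a library. Depth limits the low genes, in particular in PA replicate 1, the shallowest library.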

Other observations

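Several genes outside the lists, chosen after their values were seen, changed as much as the members named above. Nat8f2, an acetyltransferase-like gene of liver and kidney, stood at 36.6 and 32.01 FPKM with Vehicle, 109 and 97.5 with PA and 36.04 and 32.6 with LA, a difference of 1.63 ± 0.11 from Vehicle. Ces2c, a carboxylesterase, stood at 11.1 and 9.98 FPKM with Vehicle, 26.9 and 29.6 with PA and 10.2 and 9.96 with LA (1.46 ± 0.09). Both PA libraries lay above all Vehicle and LA libraries in these genes. Ubd, a ubiquitin-like protein known to be induced by cytokines, went from 63.9 and 51.1 to 164 and 142 FPKM (1.44 ± 0.097), Slc7a2, an arginine carrier, from 10.6 and 10.3 to 23.4 and 23.9 (1.21 ± 0.08) and Tfrc, the transferrin receptor, from 10.02 and 9.88 to 20.9 and 20.2 (1.08 ± 0.07).

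Other enzymes of the mature liver fell. Adh1, alcohol dehydrogenase, stood at 118 and 100.5 FPKM with Vehicle, 44.4 and 40.3 with PA and 116 and 103 with LA (-1.34 ± 0.16). Selenbp2, a selenium-binding protein, stood at 46.2 and 31.9 FPKM with Vehicle, 11.4 and 3.93 with PA and 36.99 and 28.9 with LA (-2.53 ± 0.47). Car3, a carbonic anhydrase, stood at 40.2 and 22.4 FPKM with Vehicle, 11.5 and 6.05 with PA and 42.9 and 22.1 with LA (-1.91 ± 0.51). Replicates of Selenbp2 and Car3 spread widely within each group, but no PA library reached a Vehicle library. All 8 genes were called with and without the GC trend, but Car3 was not called without Vehicle replicate 1 (-1.43) or PA replicate 2 (-1.39).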
